A study of Canis lupus familiaris with 15 samples.

Results

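The comparison concerns antigestagen-induced luteolysis in the dog: corpora lutea (CL) of 5 pregnant dogs treated with the antigestagen aglepristone against those of 5 untreated pregnant dogs at mid-gestation, across every gene whose mean count reached 10 in either group. By this rule 14399 of the 23630 genes counted were taken, in 10 of the 15 dogs of the series. The dogs were grouped by title and condition; the description of the mid-gestation dog Nescafe has the number of the antigestagen group, and whether dogs were mixed up was not tested. All were healthy cross-breed bitches, 2 to 8 years old. The mid-gestation CL came from days 35 to 40. The treated dogs were between days 40 and 45, received 10 mg of aglepristone per kg body weight in 2 applications 24 h apart, and were operated on 24 h after the last application. Treatment therefore goes together with a later day of gestation, and their effects cannot be told apart. Mating took place 2 days after ovulation. The series also holds 3 dogs at natural prepartum luteolysis, timed by the drop of progesterone (P4) in blood, which was followed from day 58 on, and 2 non-pregnant dogs in luteal regression at day 65. RNA was taken from CL tissue freed of the surrounding ovary, so each library, 1 per dog, is an average over luteal, vascular, connective tissue and immune cells.

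The CL is the gland that forms from the ovulated follicle and secretes P4. Canine pregnancy depends on luteal P4 to its end, and the decline of the gland, luteolysis, precedes birth. Aglepristone binds the P4 receptor without activating it, so that P4 no longer acts on the uterus, nor on the CL itself. Luteolysis involves the loss of steroid synthesis, and in many mammals also immune cells, the breakdown of matrix and vessels and the death of luteal cells.

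Total counts were 8558743 in Citir, 17165101 in Suzan, 21247518 in Birnur, 19272885 in Seran and 12032776 in Zeynep, the treated dogs. At mid-gestation they were 19545974 in Nescafe, 20600378 in Turgay, 18313707 in Dardanel, 19861089 in Gold and 26284315 in Kurtulus. Citir, Zeynep and Suzan thus had fewer counts than every mid-gestation dog, although over the groups the totals did not differ beyond their spread (exact permutation test, two-sided, p = 0.111, adjusted over 4 such measures 0.365). In every paragraph below, values per dog are CPM, counts scaled to a common library size by TMM, which allows for a few very abundant genes, in this order of dogs, treated dogs first. A count of 0 allows up to 0.333 CPM in Citir, the shallowest library, and 0.108 CPM in Kurtulus, the deepest, for counting error only.

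The first 2 components of the differences among the 10 dogs did not follow the treatment. The first principal component of log2 CPM, with 25% of the variance, put the treated dogs Zeynep (66.5) and Seran (53.1) on 1 side and the treated dogs Suzan (-34.1), Citir (-32.1) and Birnur (-11.2) on the other, among the mid-gestation dogs Nescafe (-23.1), Turgay (-16.4), Kurtulus (-14.5) and Gold (-10.8). Dardanel lay between them at 22.6. The second component, with 21.6%, mainly set Turgay (-71.2) apart. The third, with 12.9%, put the treated dogs Citir (-37.2), Zeynep (-32.7), Birnur (-16.6) and Suzan (-16) below all mid-gestation dogs, which ran from 3.2 in Turgay to 38.3 in Nescafe, and Seran (12.9) among these. The median standard deviation (SD) of log2 CPM within a group was 0.401 among treated and 0.333 among mid-gestation dogs.

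**Figure D1:**
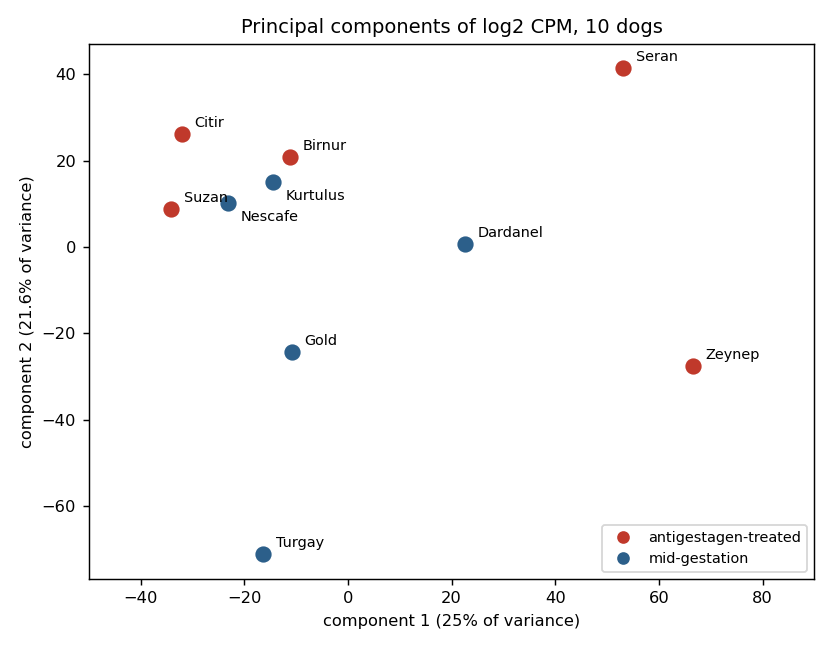
Each point is 1 dog, placed by the first component (horizontal, 25% of the variance) and the second (vertical, 21.6%) of log2 CPM over the 14399 genes; red points are antigestagen-treated and blue points mid-gestation dogs. Seran and Zeynep lie on the right, Turgay lies at the bottom, and the groups do not form separate clouds.

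Differentially expressed genes (DEG) had to pass 2 limits, 0.01 for the p-value itself and 0.1 for the p-value adjusted after Benjamini and Hochberg. Both limits were met by 0 genes (0%) in edgeR's quasi-likelihood test, with a smallest adjusted p of 0.129, whereas 980 genes had an unadjusted p-value below 0.05. There were 140 genes (0.972% of those tested) with higher and 106 (0.736%) with lower expression after antigestagen at an unadjusted p-value below 0.01. The number of DEG depended on the tool, being 87 with DESeq2, 51 with edgeR's likelihood ratio test and 18 with limma-voom. The 87 DEG of DESeq2 divided into 51 higher (0.354%) and 36 lower (0.25%) after antigestagen. DESeq2, the likelihood ratio test and limma-voom called 12 genes in common, among them TMEM2, TMEM65, FZD5, ASCC2, CCDC134, GINS4, MMRN1, CSRNP3 and SLC11A2. Without the treated dog Citir the quasi-likelihood test gave 8 DEG, and without the mid-gestation dog Kurtulus it gave 6. For what follows, a log2 ratio is antigestagen over mid-gestation unless luteolysis is named, given for most genes with its standard error (SE), and since no gene passes the main test, differences are described by the dogs that show them.

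A second reading of the same data asks in which genes every treated dog lay on 1 side of every mid-gestation dog. This held for 96 genes higher (0.667%) and 82 genes lower (0.569%) after antigestagen. Gene names were known for 2883 of the 14399 genes, namely those that the study had listed as differing in some contrast of the same dogs. Genes with a name are for this reason not a neutral sample: 4.44% of them were higher and 3.19% lower at an unadjusted p-value below 0.01, and 2.5% and 2.15% did not overlap between groups. Counts of gene lists below are to be read against these shares, and the median log2 ratio of a list against 0.07 for all genes with a name and 0.02 for all genes tested. Counts of signs are to be read against 1644 of the 2883 genes with a name, whose log2 ratio was above 0. The members of a list that could be tested were likewise limited to genes that the study had listed.

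Among named genes higher in every treated dog, the smallest p-value belonged to TMEM2 (ENSCAFG00000001825), a membrane protein that cleaves hyaluronan at the cell surface. It was at 65.4, 74.9, 69.7, 63.2 and 77.5 CPM in the treated and at 30.8, 20.7, 29.7, 19.4 and 37.7 CPM in the mid-gestation dogs, a log2 ratio of 1.34 (SE 0.21, edgeR adjusted p = 0.129). The treated dogs hardly differed from each other in this gene, and a wide gap separated the groups. TMEM65 (ENSCAFG00000025273), a protein of the inner mitochondrial membrane, was at 15.3, 28.6, 36.8, 16.6 and 26.6 CPM after treatment and at 7.14, 7.71, 12.3, 7.99 and 8.88 CPM at mid-gestation (log2 ratio 1.5, SE 0.26, edgeR adjusted p = 0.183). Here Citir and Seran were the lowest treated dogs and lay just above Dardanel, the highest mid-gestation dog.

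FZD5 (ENSCAFG00000013547), a receptor for WNT ligands, had the largest log2 ratio of these genes, 2.68 (SE 0.48, edgeR adjusted p = 0.2). The treated dogs were at 8.23, 27, 19.7, 13.1 and 13.1 CPM and the mid-gestation dogs at 1.63, 0.925, 1.83, 1.41 and 6.69 CPM. Kurtulus was well above the other mid-gestation dogs and close to Citir, and without Kurtulus the log2 ratio was 3.49. TNFRSF11B (ENSCAFG00000000834), the soluble decoy receptor osteoprotegerin, was measured at 139, 225, 242, 337 and 157 CPM in treated and at 65.4, 39.5, 59.6, 103 and 80.9 CPM in mid-gestation dogs (log2 ratio 1.66, SE 0.33, edgeR adjusted p = 0.262). Every treated dog exceeded Gold, the highest mid-gestation dog, with Seran highest of all.

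ASCC2 (ENSCAFG00000012361), part of a complex that acts in the repair of alkylated DNA and on stalled ribosomes, was at 45.9, 59.7, 70.7, 57.6 and 67.2 CPM against 34.2, 28.1, 28.1, 24.5 and 38.6 CPM (log2 ratio 0.97, SE 0.18). TRIM63 (ENSCAFG00000012671), a ubiquitin ligase best known from muscle wasting, where glucocorticoids induce it, was at 4.45, 28.1, 24.9, 6.8 and 14.7 CPM against 2.31, 2.98, 4.42, 3.65 and 4.28 CPM (log2 ratio 2.17, SE 0.47). In TRIM63 the groups touched, for Citir was barely above Dardanel, while Suzan and Birnur were far higher. The other genes of this kind were CCDC134 (log2 ratio 0.87), the adaptor PLEKHM3 (0.68), the kinase MAP3K9 (1.51) and the zinc finger gene ZSWIM4 (1.57).

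In the opposite direction, CYP17A1 (ENSCAFG00000010279) had the smallest p-value and is described with the steroid genes. ND2 (ENSCAFG00000022717), a subunit of respiratory complex I encoded in the mitochondrial genome, followed. Its levels were 2140, 1910, 1980, 1950 and 2280 CPM in treated and 3960, 4060, 4730, 3000 and 4280 CPM in mid-gestation dogs (log2 ratio -0.96, SE 0.22, edgeR adjusted p = 0.483). The treated dogs were nearly alike, and even Gold, the lowest mid-gestation dog, stood clearly above them. ND3, the other mitochondrially encoded gene with a name, was at 1530, 711, 911, 1950 and 2020 CPM against 2980, 3100, 6010, 1670 and 1840 CPM, so that Gold and Kurtulus were within the treated range. Reads of mitochondrial genes can be shared with their copies in the nuclear genome, which makes both values uncertain.

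Further genes lower in every treated dog were GINS4, PLK1 and CCNF of the cell cycle (below), MMRN1 (ENSCAFG00000009884, log2 ratio -1.22, SE 0.31), which encodes multimerin of platelets and endothelium, and PDSS1 (ENSCAFG00000004332, -0.90, SE 0.23), which makes the side chain of coenzyme Q. TNNC1, a troponin (-1.20, SE 0.29), ADGRG7, an adhesion receptor (-1.43, SE 0.38), and CD83, found on mature dendritic cells and activated lymphocytes (-0.84, SE 0.22), completed them. CD83 was at 46.1, 52.5, 55.5, 52.5 and 64.7 CPM after treatment and at 84, 137, 99.9, 91.3 and 72.1 CPM at mid-gestation. Zeynep, the highest treated dog, and Kurtulus, the lowest mid-gestation dog, came close in CD83. All 20 genes, 10 in each direction, were DEG with DESeq2, whose adjusted p ran from 1.33e-05 to 0.0784. They were chosen for dogs that do not overlap and for small p-values, so that neither is a finding about them.

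**Figure D2:**
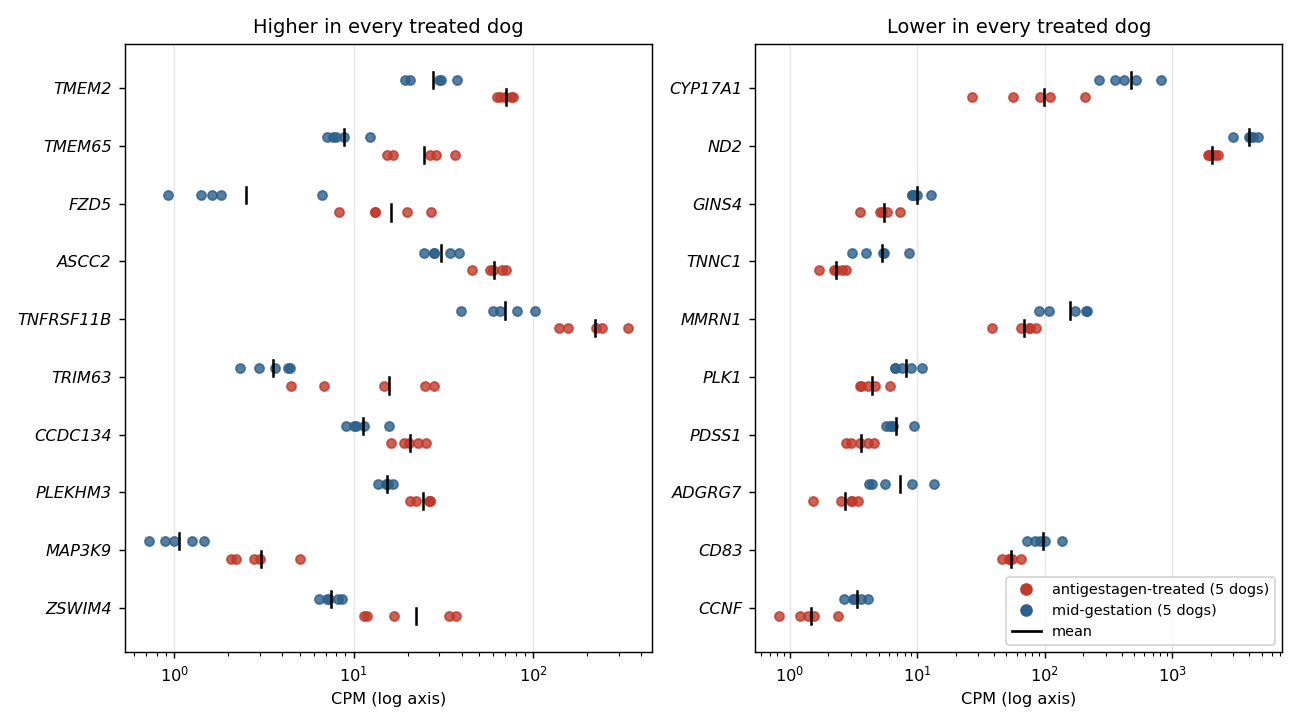
Each point is the level of a gene in 1 dog, in CPM on a log axis, for the 10 named genes of smallest p-value that were higher (left) and lower (right) in all 5 treated dogs (red) than in all 5 mid-gestation dogs (blue); black bars are group means. The gap is wide in TMEM2 and ND2, and the groups nearly touch in TRIM63, CD83 and MMRN1.

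Steroid synthesis and inactivation came next, since P4 output is what luteolysis ends. Of 32 genes listed, 9 could be paired with an identifier and tested. Of these, 1 was higher and 3 were lower at an unadjusted p-value below 0.01, and the median log2 ratio was -0.39. This median was -0.69 without Seran and Zeynep, -0.58 with limma-voom and -0.2 at a mean count of at least 50, with fewer genes. Genes of the main P4 pathway, such as STAR and CYP11A1, are not analysed here, as no identifier could be paired with them. In whole tissue, fewer cells of a type and less RNA per cell cannot be told apart.

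CYP17A1, the enzyme that turns P4 and pregnenolone into androgen precursors, was at 90.9, 110, 205, 27.1 and 56.4 CPM in the treated dogs and at 416, 268, 514, 809 and 358 CPM at mid-gestation (log2 ratio -2.27, SE 0.47, edgeR adjusted p = 0.305, DESeq2 adjusted p = 0.000585). Birnur had the most among treated dogs and was still below Turgay, the mid-gestation dog with the least, while Seran had the lowest level and Gold the highest. SULT1E1 (ENSCAFG00000002878), which inactivates oestrogens by sulfation, was scarce in every dog. It was at 0.333, 0.205, 0.436, 0.177 and 0.202 CPM against 1.36, 1.28, 0.883, 0.731 and 1.15 CPM, without overlap (log2 ratio -1.96, SE 0.56), and the treated values rest on few reads.

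UGT1A6 (ENSCAFG00000031246), which conjugates phenols and other small molecules with glucuronic acid, had the most negative log2 ratio of the list, -4.13 (SE 0.83, edgeR adjusted p = 0.262). Treated dogs were at 1.78, 1.74, 2.18, 1.3 and 2.62 CPM and mid-gestation dogs at 20.7, 33.8, 103, 9.4 and 1.55 CPM. Kurtulus was thus as low as the treated dogs, while the other mid-gestation dogs, above all Dardanel, were far higher. The genes of the UGT1A family share exons, so that the division of reads among them is uncertain. HSD17B2, which oxidises oestradiol and testosterone, was at 0.556, 0.256, 0.218, 0.0592 and 0.101 CPM against 0.0525, 2.06, 1.07, 1.04 and 0.863 CPM, with Nescafe as the exception among mid-gestation dogs.

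HSD3B7 (ENSCAFG00000016770) was the listed gene that was higher in every treated dog. It is known for bile acid synthesis, and whether it takes part in P4 synthesis was not tested. Its levels were 69.7, 76, 74, 107 and 117 CPM after treatment and 65.4, 52.8, 65.4, 61.8 and 55.8 CPM at mid-gestation (log2 ratio 0.56, SE 0.18, edgeR adjusted p = 0.543). The step between the groups was small, and Seran and Zeynep contributed most of it. The remaining members were within the spread of the dogs: the log2 ratio was -0.39 (SE 0.32) for HSD11B2, which inactivates cortisol, 0.05 (SE 0.25) for HSD17B12, and -0.20 (SE 0.17) and 0.00 (SE 0.18) for the luteal transcription factors GATA4 and GATA6.

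**Figure D3:**
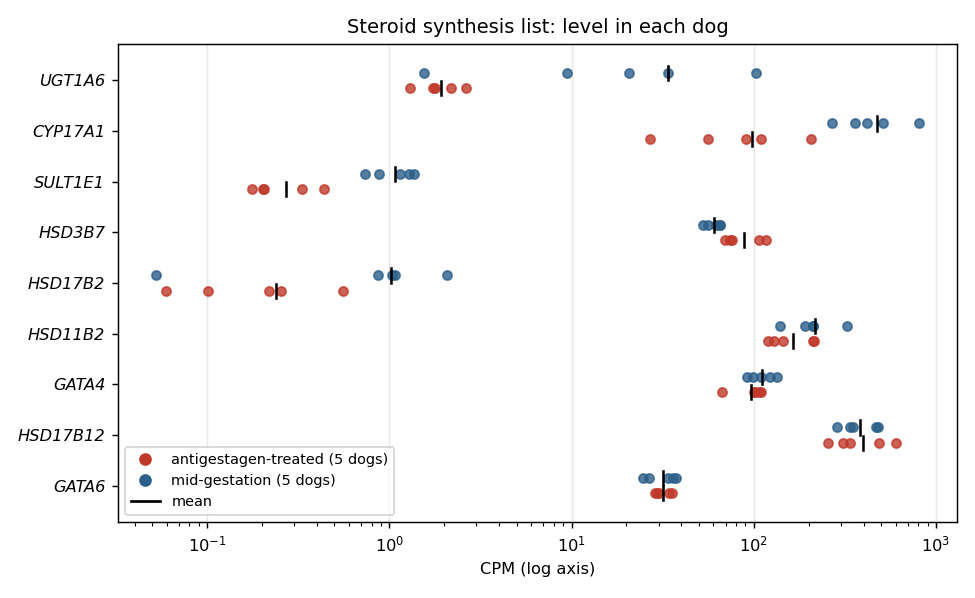
Levels of the 9 tested genes of the steroid list in each dog, in CPM on a log axis, in treated (red) and mid-gestation dogs (blue), with group means as black bars; genes are ordered by p-value. CYP17A1 and SULT1E1 are lower and HSD3B7 is higher in all treated dogs, and in UGT1A6 and HSD17B2 a single mid-gestation dog lies with the treated dogs.

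Of 28 genes for hormone and prostaglandin receptors and enzymes, 12 were tested, with 0 at an unadjusted p-value below 0.01 in edgeR and 0 DEG in DESeq2; 9 had a positive log2 ratio and the median was 0.19 (0.05 without Citir, 0.37 without Nescafe). The 2 smallest p-values were those of FSHR (ENSCAFG00000002698), the receptor for follicle stimulating hormone, and PRLR (ENSCAFG00000018782), the receptor for prolactin, which supports the canine CL. FSHR was at 744, 1170, 1330, 1510 and 1940 CPM in treated and 617, 900, 1140, 741 and 846 CPM in mid-gestation dogs (log2 ratio 0.66, SE 0.25, edgeR adjusted p = 0.617). PRLR was at 121, 175, 160, 157 and 149 CPM against 70.4, 67.3, 145, 104 and 136 CPM (log2 ratio 0.55, SE 0.22). In both genes most treated dogs were above most mid-gestation dogs, but Citir lay within the mid-gestation range. The receptors GHR, IGF1R, NR3C2 and ESR1 had log2 ratios of 0.45, 0.53, 0.22 and 0.13, and the glucocorticoid receptor NR3C1 had -0.08 (SE 0.14). The relaxin receptor RXFP1 was at -0.44 (SE 0.51), and at -0.02 without Nescafe. PTGES, which makes prostaglandin E, was at -0.46 (SE 0.36), whereas the prostaglandin transporter SLCO2A1 and the receptor PTGER2 were at 0.17 (SE 0.56) and 0.16 (SE 0.59) and took a negative sign in other settings.

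Of 42 mitosis genes 22 were tested, all 22 with a negative log2 ratio, 10 of them at an unadjusted p-value below 0.01, and the median was -1.08. Of 44 DNA replication genes 10 were tested, all 10 negative, 4 of them at an unadjusted p-value below 0.01, with a median of -1.12. By edgeR 0 of these genes were DEG, and by DESeq2 4 and 2 were, against 78 of all 2883 genes with a name. Such genes are transcribed together in dividing cells, so that they are not independent of each other.

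GINS4 (ENSCAFG00000005728), part of the helicase that opens DNA for replication, was at 3.56, 5.79, 5.32, 5.15 and 7.37 CPM in treated and 9.08, 12.8, 9.02, 9.4 and 9.89 CPM in mid-gestation dogs (log2 ratio -0.88, SE 0.21, edgeR adjusted p = 0.483). The mitotic kinase PLK1 (ENSCAFG00000017658) was at 4.67, 6.1, 4.14, 3.55 and 3.63 CPM against 6.66, 10.9, 7.57, 8.98 and 6.69 CPM (log2 ratio -0.88, SE 0.23). In both the groups stood apart by a narrow margin and Turgay was highest. UBE2C (ENSCAFG00000009745), which marks mitotic proteins for degradation, was at 1.67, 3.44, 3.4, 1.66 and 2.62 CPM against 4.15, 16.1, 4.1, 11 and 6.18 CPM (log2 ratio -1.68, SE 0.45), so that Nescafe and Dardanel were little above the treated dogs. HJURP, which loads centromeric histone, and CCNA2, a cyclin of S phase and mitosis, had log2 ratios of -1.80 (SE 0.49) and -1.16 (SE 0.36), CCNF -1.17 (SE 0.31), and the replication or repair genes KIAA0101, RAD51AP1 and RFC4 -1.64, -1.36 and -0.50. Dardanel was within the treated range in CCNA2, KIAA0101 and RFC4, as was Nescafe in RAD51AP1 and CCNA2.

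Seen by dog, the summed level of the tested mitosis genes was 120, 165, 163, 90 and 99.4 CPM in the treated dogs and 146, 365, 129, 298 and 256 CPM at mid-gestation. Turgay, Gold and Kurtulus were high, whereas Nescafe and Dardanel were no higher than Suzan and Birnur. Of the 32 mitosis and replication genes, Turgay exceeded every treated dog in 32, Gold in 31, Kurtulus in 29, Nescafe in 15 and Dardanel in 12. The median of the mitosis list was -0.83 without Turgay and between -1.23 and -0.83 with any 1 of the 10 dogs left out. Without the treated dogs Seran and Zeynep, which had the lowest sums, it was -0.77, and 9 of the 22 genes instead of 21 had an unadjusted p-value below 0.05. Of 22 genes that restrain the cell cycle 8 were tested, 0 at an unadjusted p-value below 0.01. Among them CDKN1A, the p21 inhibitor of cyclin-dependent kinases, was at 56.8, 430, 286, 96.1 and 135 CPM against 80.6, 46.3, 129, 68.6 and 88.6 CPM, with Suzan and Birnur high, Citir and Seran within the mid-gestation range and Zeynep just above it, and TP53INP1 had a log2 ratio of 1.06 (SE 0.36).

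**Figure D4:**
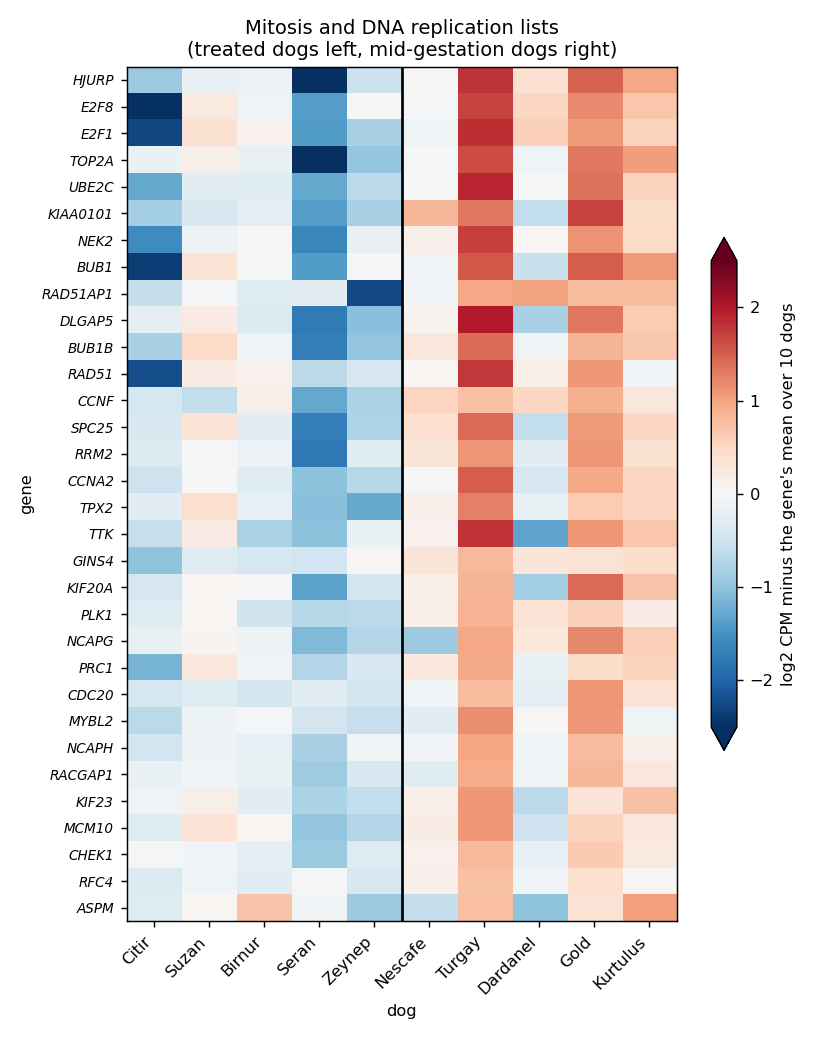
Heat map of the 32 tested mitosis and DNA replication genes (rows) in the 10 dogs (columns, treated dogs left of the line), coloured by log2 CPM minus the mean of the gene over the 10 dogs, with colours ending at -2.5 and 2.5. Turgay, Gold and Kurtulus are mostly red, Citir, Seran and Zeynep mostly blue, and Nescafe and Dardanel resemble Suzan and Birnur in many genes.

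Inflammatory signalling was described by several lists. NF-kB is a family of transcription factors that cytokines and microbial products activate through a cascade of kinases. Of 38 genes of this pathway 20 identifiers were tested, 19 of them with a positive log2 ratio; 3 were higher and 0 lower at an unadjusted p-value below 0.01, 4 were higher in every treated dog, and the median was 0.57. RELB (ENSCAFG00000004597), a subunit of NF-kB, was at 31.3, 41.5, 47.9, 42.9 and 52.3 CPM in treated and at 27.6, 27.9, 30.6, 27.6 and 27.9 CPM in mid-gestation dogs (log2 ratio 0.61, SE 0.17, edgeR adjusted p = 0.509). The mid-gestation dogs were almost equal, and Citir was only a little above them. MAP3K14, the kinase of the pathway that activates RELB, was at 12.8, 29.4, 26.8, 13.7 and 10.4 CPM against 8.55, 6.78, 11.2, 11 and 11.6 CPM, with Zeynep inside the mid-gestation range (log2 ratio 0.93, SE 0.31). ZC3H12A, an RNase that degrades cytokine transcripts, had a log2 ratio of 1.03 (SE 0.33), and Citir was just below Gold.

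Among receptors for cytokines and complement, 18 of 31 were tested, 16 with a positive log2 ratio and a median of 0.64; 4 were higher and 1 was lower at an unadjusted p-value below 0.01. Beside TNFRSF11B these included C5AR2 (ENSCAFG00000004173), a receptor for complement C5a, at 45.6, 27.7, 94.9, 42.6 and 48.5 CPM in treated and at 12.1, 12.9, 17.6, 16.4 and 23.8 CPM in mid-gestation dogs (log2 ratio 1.64, SE 0.42, edgeR adjusted p = 0.509). Birnur was far above the others, and the groups did not overlap. IL10RA, the receptor for the anti-inflammatory IL10, had a log2 ratio of 0.79 (SE 0.24). In this gene Seran was highest (14.7 CPM) and Zeynep (6.76 CPM) was just below Nescafe (6.87 CPM), so that the groups overlapped. CXCR4 (ENSCAFG00000005109), the receptor for CXCL12, was the lower gene, at 54.5, 20.4, 37.4, 31.8 and 34.5 CPM against 73.3, 97.8, 175, 99.2 and 26.4 CPM (log2 ratio -1.4, SE 0.42), where Kurtulus was among the treated dogs.

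The ligands were less uniform. Of 30 cytokine and chemokine genes 16 were tested, with a median log2 ratio of 0.35 (0.15 to 0.72 with any 1 dog left out) and 1 gene at an unadjusted p-value below 0.01. This was TGFB1, at 19.6, 31, 41.5, 36 and 52.9 CPM against 23.9, 19.8, 25.6, 24 and 18.3 CPM (log2 ratio 0.70, SE 0.23), in which Citir was as low as the mid-gestation dogs. The neutrophil chemokine CXCL8 was at 46.7, 4.82, 19.8, 11 and 17.5 CPM after treatment and at 2.89, 7.71, 5.93, 177 and 28.1 CPM at mid-gestation. Its log2 ratio of -1.17 (SE 0.92) rested on Gold, without which it was 0.81. CCL3 was low in these 10 dogs (log2 ratio 0.41, SE 1.05) and highest in Gold (6.63 CPM), without which the log2 ratio was 1.24.

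Immediate early transcription factors answer within minutes to growth factors and stress. Of 34 listed 13 were tested, 12 with a positive log2 ratio, 2 of them at an unadjusted p-value below 0.01, and the median was 0.51 (0.30 to 1.09 with any 1 dog left out). FOSL2 (ENSCAFG00000005212), a partner of JUN in AP-1, was at 87.3, 61.1, 63.8, 73.4 and 43 CPM in treated and at 33.6, 14, 39, 39.5 and 31.2 CPM in mid-gestation dogs (log2 ratio 1.06, SE 0.26, edgeR adjusted p = 0.483), and every treated dog was above Gold. NAB2, a corepressor of EGR factors, had a log2 ratio of 0.98 (SE 0.28), with Citir and Seran inside the mid-gestation range. FOS itself was at 1640, 900, 1300, 526 and 1010 CPM in treated dogs, and at 946 CPM in Turgay, 135 CPM in Dardanel, 2190 CPM in Gold and 386 CPM in Kurtulus, with Nescafe lowest. Turgay was within the treated range, and Gold, which was also high in CXCL8, had the highest level of all (log2 ratio 0.51, SE 0.71, and 1.42 without Gold).

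Of the acute-phase genes 6 of 23 were tested, all 6 positive, with a median of 0.51 (0.23 to 0.69 with any 1 dog left out); LTF, the lactoferrin of neutrophils and secretions, was at 7.89, 3.64, 3.49, 3.67 and 7.47 CPM against 2.05, 1.54, 3.09, 3.45 and 1.91 CPM (log2 ratio 1.11, SE 0.33). LTF is also a neutrophil marker, and all 3 of the 9 neutrophil markers that were tested had a positive log2 ratio. Their summed level was 43, 18.9, 19.8, 22.1 and 36.6 CPM in the treated and 6.45, 10.3, 10.2, 33.4 and 9.78 CPM in the mid-gestation dogs, with S100A9 as the most abundant gene (log2 ratio 1.06, SE 0.66). Gold was the mid-gestation dog with a level like that of treated dogs. None of the 3 was at 0 in any dog. The dogs highest in these markers, Citir, Zeynep and Gold, were also highest in the haemoglobin gene HBA, at 70.8, 790 and 58.3 CPM. Turgay (51.8 CPM) and Kurtulus (48.1 CPM) were close to Gold in HBA but low in the neutrophil markers. The parts of neutrophils and of blood in the inflammatory lists were not tested. Of 15 tested interferon responsive genes 11 were negative and 4 positive, with a median of -0.37 (-0.76 to -0.15 with any 1 dog left out). Only 1 had an unadjusted p-value below 0.01, IFIT2 (log2 ratio -1.03, SE 0.30), while DLA88, the most abundant, was at 1.2 (SE 0.44). By dog the groups overlapped. The median log2 difference of these genes from their mid-gestation mean was 0.57 in the treated dog Zeynep and -0.8 in the mid-gestation dog Turgay. Their summed level was highest in the treated dogs Zeynep (1790 CPM) and Seran (1250 CPM).

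**Figure D5:**
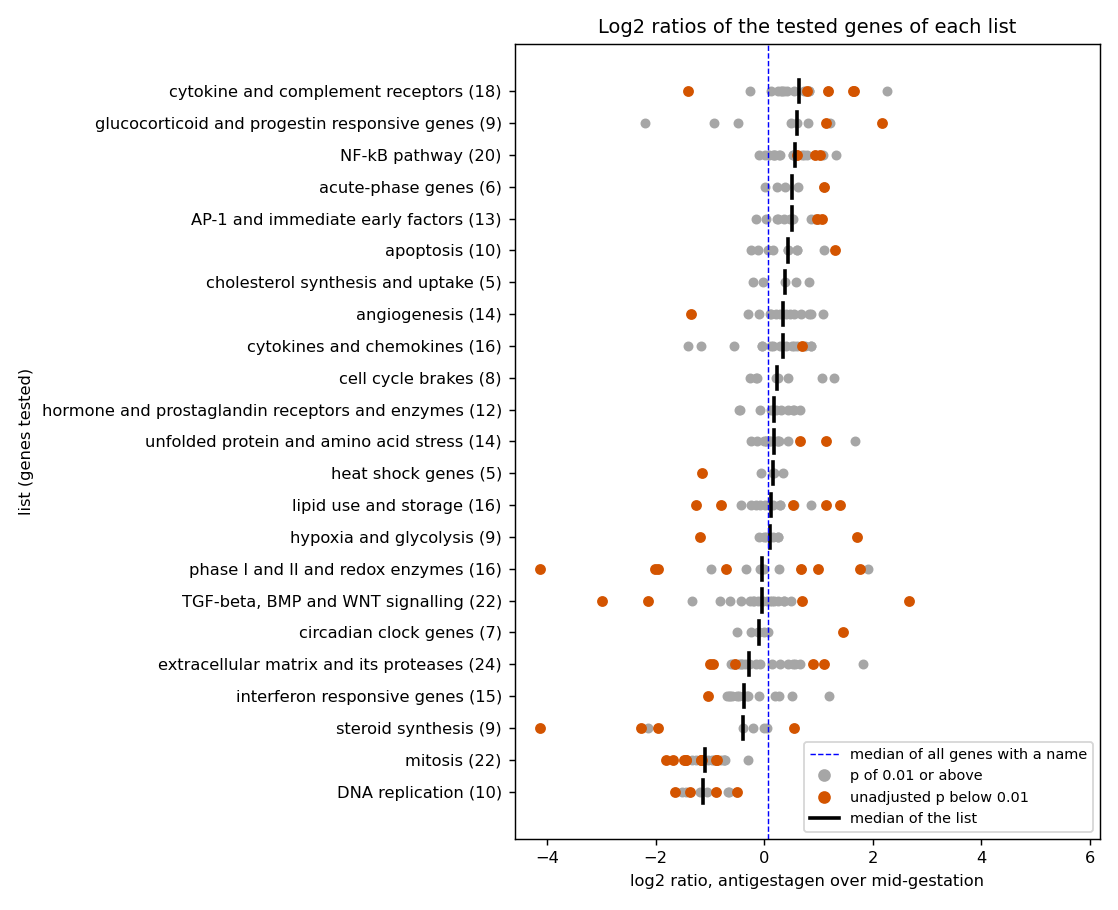
Each point is the log2 ratio, antigestagen over mid-gestation, of 1 tested gene of a list (lists with at least 5 tested genes, number in brackets); orange points had an unadjusted edgeR p-value below 0.01, black bars are list medians and the dashed line is the median of all genes with a name, 0.07. The mitosis and DNA replication lists lie wholly below 0, and NF-kB and receptor genes mostly above it.

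Genes of matrix, growth factors and metabolism were divided. In the matrix list 24 of 47 genes were tested, 2 higher and 3 lower at an unadjusted p-value below 0.01, with a median of -0.28 (-0.40 to -0.03 with any 1 dog left out). CRISPLD2 (ENSCAFG00000019943), a secreted protein, was at 290, 300, 320, 150 and 183 CPM in treated and at 692, 416, 471, 438 and 378 CPM in mid-gestation dogs, without overlap (log2 ratio -0.95, SE 0.27, edgeR adjusted p = 0.509). SMOC2, a calcium-binding matrix protein, was at 414, 563, 461, 158 and 395 CPM against 920, 642, 685, 1250 and 486 CPM (log2 ratio -1, SE 0.31), where Suzan exceeded Kurtulus. Higher were FREM2, a protein of basement membranes (log2 ratio 1.11, SE 0.30), and ADAM17, the protease that releases TNF and other ligands from the cell surface (0.90, SE 0.26).

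Beside the matrix genes, all 6 tested of 9 fibroblast markers had a negative log2 ratio (median -0.50), 0 of them at an unadjusted p-value below 0.01. Their summed level was 4640, 9430, 8400, 4720 and 3490 CPM in treated and 15300, 3790, 5760, 10400 and 7760 CPM in mid-gestation dogs, COL1A2 being the most abundant (log2 ratio -0.54, SE 0.36). Nescafe was highest by far and Turgay was as low as the lowest treated dogs. Of the 6 markers 4, namely FBLN1 and 3 collagens, are also in the matrix list, and the part of fibroblasts in that list was not tested.

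Among 49 genes of TGF-beta, BMP and WNT signalling 22 were tested, 2 higher (FZD5 and TGFB1) and 2 lower at an unadjusted p-value below 0.01, with a median of -0.04 (-0.09 to 0.01 with any 1 dog left out). The ligand BMP5 was at 0, 0.41, 0.349, 0 and 0 CPM in the treated dogs and at 3.36, 1.59, 0.315, 1.41 and 0.647 CPM at mid-gestation, and the ligand WNT2 at 0.222, 0.205, 0.0436, 0.118 and 0 CPM against 0.892, 0.462, 0.379, 0.679 and 0.288 CPM. Both were scarce. WNT2 did not overlap between groups, while Dardanel was within the treated range in BMP5.

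In lipid use and storage 16 of 45 genes were tested, 3 higher and 2 lower at an unadjusted p-value below 0.01. PDK4, which holds back glucose oxidation in favour of fatty acids and answers to glucocorticoids, was at 521, 839, 211, 446 and 588 CPM against 152, 170, 197, 348 and 304 CPM (log2 ratio 1.15, SE 0.38), with Birnur inside the mid-gestation range. ACSL1, which activates fatty acids, had a log2 ratio of 0.54 (SE 0.17), with Seran (58.2 CPM) below Dardanel (69 CPM). Lower were LPL, the lipase that releases fatty acids from lipoproteins (-1.26, SE 0.40), and ELOVL4, which lengthens very long fatty acids (-0.80, SE 0.22). Both overlapped between groups. Turgay, at 13.5 CPM in LPL, was below all treated dogs except Zeynep (11.3 CPM), and Kurtulus, at 8.59 CPM in ELOVL4, was within the treated range. The glucocorticoid and progestin responsive list, with 9 of 25 genes tested, a median of 0.61 and 2 genes at an unadjusted p-value below 0.01 (TRIM63 and PDK4), also held ZBTB16 at -0.93 (SE 0.33).

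Enzymes of conjugation and redox balance numbered 16 tested of 37, of which 3 were higher and 4 lower at an unadjusted p-value below 0.01. GCLC (ENSCAFG00000002288), the first enzyme of glutathione synthesis, was at 140, 406, 327, 408 and 415 CPM in treated and 146, 223, 132, 163 and 185 CPM in mid-gestation dogs (log2 ratio 1.00, SE 0.26, edgeR adjusted p = 0.509). Only Citir lay among the mid-gestation dogs, and without Citir GCLC was a DEG. GPX7, a peroxidase of the endoplasmic reticulum, was at 28.7, 32.4, 27.5, 30.9 and 29.7 CPM against 47.9, 65.4, 39.4, 51.3 and 37.9 CPM, lower in every treated dog (log2 ratio -0.70, SE 0.20). AOC1, which degrades histamine and putrescine, was at 0.445, 0.103, 0.566, 0.355 and 0.404 CPM against 1.52, 2.11, 1.7, 0.313 and 1.94 CPM, with Gold as low as the treated dogs (log2 ratio -2.01, SE 0.54).

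In the lists for stress, hypoxia and vessels few genes stood out. ERN1, a sensor of unfolded proteins, and SLC3A2, a subunit of amino acid transporters, had log2 ratios of 1.15 (SE 0.33) and 0.66 (SE 0.19), 2 of 14 tested genes of the unfolded protein list at an unadjusted p-value below 0.01. Of 9 tested genes for hypoxia and glycolysis, ADM5, which resembles adrenomedullin, was at 1.71 (SE 0.46) and PFKFB4, a regulator of glycolysis, at -1.18 (SE 0.32). Among 14 tested genes of angiogenesis the endothelial gene ESM1 (ENSCAFG00000018381) was at 14.5, 5.43, 12.5, 18 and 5.86 CPM against 37.1, 28, 25, 37.5 and 14.6 CPM (log2 ratio -1.34, SE 0.36), with Kurtulus below Seran. Of 5 tested heat shock genes CRYAB, a small chaperone, had a log2 ratio of -1.14 (SE 0.36). In the apoptosis list, with 10 of 34 genes tested, the 1 gene at an unadjusted p-value below 0.01 was CSRNP3 (ENSCAFG00000032100), a transcription factor, at 14.1, 22.4, 17.4, 6.92 and 13.4 CPM against 4.51, 4.93, 6.18, 7.26 and 7.15 CPM (log2 ratio 1.31, SE 0.29), where Seran was below Gold.

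Several genes that the study names for this contrast were high in particular treated dogs. NFIL3 (ENSCAFG00000002169), a repressor in the circadian clock and in immune cells, was at 107, 224, 278, 261 and 451 CPM in treated and 34.9, 96.4, 96.4, 111 and 141 CPM in mid-gestation dogs (log2 ratio 1.46, SE 0.42). RASEF, a small GTPase, was at 53, 106, 129, 203 and 298 CPM against 37.5, 36.5, 71.4, 21.1 and 41.4 CPM, and the motor protein KIF5C at 14.6, 35.5, 75.9, 46.8 and 178 CPM against 11.2, 11.9, 15.1, 10.1 and 44.7 CPM. In each of them Zeynep was highest and Citir, the lowest treated dog, lay within the mid-gestation range, as did Suzan in KIF5C. The chloride channel CLCN1 (log2 ratio 2.40, SE 0.69), the cation channel TRPC4 (1.46, SE 0.37), the elongation factor ELL2 (1.30, SE 0.36), C10orf10 (1.4, SE 0.37) and TTC9 (1.13, SE 0.31) overlapped between groups as well. NT5E (ENSCAFG00000002994), the ectoenzyme that forms adenosine, was at 4.45, 4.82, 1.96, 5.44 and 5.96 CPM against 16.3, 19.8, 9.15, 10.5 and 5.97 CPM (log2 ratio -1.45, SE 0.41), with Zeynep and Kurtulus practically equal. Since the study drew these genes from the same dogs, their direction is no independent evidence.

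Some genes set a single dog apart. The haemoglobin gene HBA (ENSCAFG00000029904), whose reads may be shared with its near-identical copies, was at 70.8, 9.02, 17.9, 15.7 and 790 CPM in treated and 9.39, 51.8, 1.45, 58.3 and 48.1 CPM in mid-gestation dogs. Zeynep was far above all others and Dardanel far below. OLR1, a receptor for oxidised lipoprotein, was at 12.7, 28.8, 50.6, 1.77 and 2.02 CPM against 0.472, 1.54, 0.505, 0.887 and 3.09 CPM, so that Citir, Suzan and Birnur were high while Seran and Zeynep, the dogs apart in the first component, were at mid-gestation levels. Among mid-gestation dogs, Turgay was alone in IGFBP1, a binding protein of insulin-like growth factors (9.87 CPM), Gold in the cytochrome CYP2C21 (72.7 CPM) and Kurtulus in the DNA glycosylase NEIL3 (24.6 CPM).

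Of the markers of cell types, CD83 and LTF alone had an unadjusted p-value below 0.01. Of 11 markers of luteal steroidogenic cells PRLR and INSL3 were tested. INSL3, a peptide hormone of steroid-making cells of the gonads, was at 287, 817, 718, 3190 and 1950 CPM in treated and at 1070, 1980, 2150, 789 and 1280 CPM in mid-gestation dogs (log2 ratio -0.06, SE 0.54). Both markers were present in every dog, with Seran highest and Citir lowest in INSL3. The log2 ratio of INSL3 rested on Seran and Zeynep, without which it was -1.25 (SE 0.49). Macrophage and dendritic cell markers (9 of 18 tested) had a median log2 ratio of 0.20, with CD74 as the most abundant (0.40, SE 0.31); their summed level ran from 1450 CPM in Suzan to 2440 CPM in Seran and from 1170 CPM in Kurtulus to 2550 CPM in Dardanel. The 4 tested markers of T and NK cells were led by CD2 (-0.27, SE 0.33) and the 8 of endothelium by VWF (0.32, SE 0.28), with medians of -0.32 and 0.20. Endothelial markers summed to 346 CPM in Turgay, the lowest, and 1270 CPM in Seran, the highest. The 3 markers of pericytes and smooth muscle had a median of -0.01, and TAGLN was at 146, 180, 133, 89.3 and 139 CPM against 447, 47.4, 121, 278 and 85.5 CPM, so that Nescafe was high and Turgay low.

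Finally, the treated dogs were set beside the 3 dogs at natural prepartum luteolysis, for the genes named in the text. The difference was tested directly as antigestagen over luteolysis, where edgeR gave 687 DEG among 14473 genes, 235 higher (1.62%) and 452 lower (3.12%) after antigestagen. This number depended on single dogs. It was 2169 without the luteolysis dog Amy, 229 without Kimba, 6 without Senta, 320 without the treated dog Birnur and 437 without Zeynep, and it was 3 when the luteolysis and treated dogs alone were fitted. Treated dogs were between days 40 and 45 and luteolysis dogs at day 58 or later, and the part of day was not tested. Where each dog was operated on was not known, and its part was not tested either. Of the 20 genes that stood apart most clearly above, 3 were DEG in this comparison, namely TMEM65, ND2 and PDSS1. Without Senta none of the 3 was a DEG, while their log2 ratios over luteolysis were 1.72, -1.12 and -0.85.

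TMEM65 had a log2 ratio of 1.60 over luteolysis and 1.5 over mid-gestation, while luteolysis over mid-gestation was at -0.10 (SE 0.30). For ND2 the 3 values were -1.04, -0.96 and 0.08 (SE 0.25), and for PDSS1 -0.97, -0.90 and 0.08 (SE 0.26). The luteolysis dogs differed among themselves, with Amy at 6040 CPM, Kimba at 3010 CPM and Senta at 3620 CPM in ND2 and at 4.73, 8.5 and 8.17 CPM in PDSS1, so that Amy was above every mid-gestation dog in ND2 and below every mid-gestation dog in PDSS1. In TMEM2 antigestagen over luteolysis was 0.13 and luteolysis over mid-gestation 1.21, in ASCC2 -0.34 and 1.31, and in CYP17A1 -1.27 and -1; none of these genes was a DEG between the treated and the luteolysis dogs, which does not show that they were alike. Both ratios over mid-gestation share the mid-gestation dogs.

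Of 108 genes of the text that could be tested over luteolysis, 17 were DEG, 9 higher and 8 lower after antigestagen. Of all 2934 genes with a name tested over luteolysis, 219 (7.46%) were DEG with higher and 411 (14%) with lower expression after antigestagen, and since names come from the study's lists, these shares are the ones to compare with. Higher beside TMEM65 were INSL3 (log2 ratio 3.49, SE 0.74), CLCN1 (3.69, SE 0.92), KIF5C (2.61, SE 0.74), NFIL3 (2.10, SE 0.52), FREM2 (1.53, SE 0.37), CD2 (1.38, SE 0.40), CSRNP3 (1.19, SE 0.35) and FSHR (1.08, SE 0.30). The mean of INSL3 was 124 CPM in luteolysis, 1390 CPM in treated and 1450 CPM in mid-gestation dogs. Lower beside ND2 and PDSS1 were CCL3 (-5.03, SE 1.19), CXCL8 (-3.52, SE 1.05), WNT2 (-3.32, SE 0.70), NT5E (-2.79, SE 0.46), TAGLN (-2.32, SE 0.70) and PTGES (-1.90, SE 0.41). In CCL3 and TAGLN the luteolysis dog Amy, at 0.0751 and 60.3 CPM, was below every treated dog. Kimba was at 127 and 1010 CPM and Senta at 183 and 988 CPM in these genes. Without Senta 0 of the 17 were DEG, though their log2 ratios kept their sign, for example 3.12 for INSL3, 2.26 for NFIL3, -4.32 for CCL3, -3.31 for CXCL8 and -2.72 for NT5E.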

How the data were processed

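Poly-A selected RNA was read from a single end with 125 bp. According to the submitters' processing notes CASAVA 1.8, bcl2fastq 1.8.4, STAR 2.5.1b, featureCounts and the genome CanFam3.1 were used, and the authors deposited raw counts per Ensembl gene, whose values from 10000 upwards carry 4 digits only. Groups followed the condition and title of each label. Without Nescafe, whose description differs, edgeR gave 0 DEG, with a smallest adjusted p of 0.389. As the full fit gave 0 DEG too, this cannot tell whether dogs were mixed up. All 15 dogs were fitted with 1 mean per group (14922 genes) in R 4.3.3 with edgeR 4.0.16, TMM scaling and the two-sided quasi-likelihood F-test, adjusted after Benjamini and Hochberg across tested genes. DESeq2 1.42.0 and limma 3.58.1 were alternatives. Log2 CPM had a prior count of 2. The SE is the absolute log2 ratio over the square root of F. The fits were also run on simulated data, whose results are not given or used here.

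Names, from the study's lists of genes that differed, covered 2969 identifiers. Lists (24 of pathways, 14 of cell type markers) had 875 symbols, of which 37.3% could be tested, and they have no test of their own. Genes were named from the 10 per direction of smallest p-value without overlap, any steroid or receptor gene, the 4 of smallest p-value of other lists, leading markers, a set of genes the study names, and up to 5 per dog that set it apart. Members and lists were chosen with earlier results of these data known.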

Additional observations from a re-analysis of the deposited data

Results flagged for a closer look

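Within each group of 5 dogs, Dixon's ratio Q divides the gap between the outermost dog and its neighbour by the range, on log2 CPM. Of 224 groups (each gene named in the text, in treated and in mid-gestation dogs) 22 exceeded 0.71, a limit that 1 group picked without regard to its values passes by chance in about 1 of 20 cases. IGFBP1, CYP2C21 and NEIL3 were named because a single dog stood apart, so their flags follow from that choice, and the total is not comparable with the chance rate. Q is relative to the range: in RELB (30.6 against 27.9 CPM) and SLC31A2 (5.7 against 5.14 CPM) the dog was close to its neighbour in level.

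In treated dogs, Citir was apart in PTGER2 (high, Q = 0.851), GCLC (low, 0.781) and SLC11A2 (low, 0.812), Seran in GATA4 (low, 0.83), HJURP (low, 0.721) and SMOC2 (low, 0.721), Zeynep in RAD51AP1 (low, 0.748) and Birnur in NT5E (low, 0.734).

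In mid-gestation dogs, Turgay was apart in GINS4 (high, 0.739), PDSS1 (high, 0.783), FOSL2 (low, 0.772), IGFBP1 (high, 0.745) and SLC31A2 (high, 0.74), Dardanel in RELB (high, 0.883) and CD2 (high, 0.852), Gold in ZC3H12A (high, 0.712), AOC1 (low, 0.815) and CYP2C21 (high, 0.87), Nescafe in RAD51AP1 (low, 0.802) and NFIL3 (low, 0.729), and Kurtulus in KIF5C (high, 0.73) and NEIL3 (high, 0.723).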

How the results depend on the processing

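Over 20 alternative settings (edgeR's legacy method, also planned, is the default of this version and gives the same fit) 101 of 112 genes named in the text kept the sign of their log2 ratio, 10 reversed it in 23 of 2230 values, and GATA6, at 0.00, ran from -0.08 to 0.06. The settings with edgeR's legacy estimate off, and without Seran and Zeynep, were chosen after seeing the data. DEG against mid-gestation numbered 87 with DESeq2, 51 with the likelihood ratio test, 18 with limma-voom and 6 with the legacy estimate off, and 0 to 8 with any 1 dog left out. Over luteolysis they numbered 1486, 1155 and 2833 with the first 3 of these, 3 with the compared groups alone, 185 without Seran and Zeynep, and 6 to 2169 with any 1 dog left out. Genes without overlap numbered 119 to 265 higher and 109 to 169 lower with any 1 dog left out, and 733 and 698 without Seran and Zeynep, since fewer dogs overlap less by construction. With limma-voom the log2 ratio was -0.22 for HSD17B12, -0.30 for SLCO2A1 and -0.30 for PTGER2. Without Seran and Zeynep it was -0.33 for HSD17B12, 0.05 for NR3C1, -0.07 for SLCO2A1 and -0.06 for HBA. With any 1 dog left out it ran from -0.14 to 0.17 for HSD17B12, -0.34 to 0.47 for SLCO2A1, -0.53 to 0.33 for PTGER2, -1.74 to 0.81 for CXCL8, -0.63 to 0.20 for INSL3, -0.48 to 0.02 for CD2, -0.76 to 0.05 for TAGLN, -0.27 to 2.72 for HBA and -1.11 to 0.88 for CYP2C21. Without a change of sign, leaving out 1 dog moved by over 1.5 times FOS (0.24 to 1.42), CCL3 (0.14 to 1.24), RXFP1 (-0.81 to -0.02), IGFBP1 (-2.51 to -0.19), NEIL3 (-1.67 to -0.26), KIF5C (1.21 to 2.54), CDKN1A (0.8 to 1.52), S100A9 (0.82 to 1.64), COL1A2 (-0.74 to -0.25), PTGES (-0.64 to -0.29), HSD11B2 (-0.51 to -0.22), CD74 (0.26 to 0.63), VWF (0.16 to 0.47), GATA4 (-0.28 to -0.09), ESR1 (0.03 to 0.32), NR3C2 (0.07 to 0.34) and NR3C1 (-0.18 to 0.00). Other settings moved further genes by over 1.5 times, to 0.36 for FSHR, 0.3 for HSD3B7, 0.69 for LTF and 0.75 for PDK4. They also took C10orf10 to 0.91, RASEF to 1.23, S100A9 to 0.55, ADGRG7 to -0.9, UGT1A6 to -2.67 and HSD17B2 to -1.34. List medians reversed for cholesterol synthesis (-0.22 with limma-voom, -0.18 without Seran and Zeynep), hypoxia and glycolysis (-0.01) and lipid use (-0.05), both without Seran and Zeynep, and TGF-beta, BMP and WNT signalling (0.11 at a mean count of at least 50, with fewer genes). Changes of sign within the spread of the mid-gestation dogs were those of circadian clock genes (0.05 without Seran, 0.13 without Nescafe), TGF-beta, BMP and WNT signalling (0.01 without Seran, 0.04 without Seran and Zeynep) and lipid use (-0.02 with limma-voom). Elsewhere the cause was not tested. No paired analysis was possible because the labels do not pair dogs across groups. Genes with few reads are least sure in Citir and Zeynep, the shallowest libraries.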

Other observations

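Metal transport genes were looked at after their values had been seen, so that no p-value is given for them. For the same reason the calls of SLC11A2 and ATP7B as DEG, here and above, are no finding about them. SLC11A2 (ENSCAFG00000007902), which carries iron out of endosomes, was at 42.5 CPM in Citir, at 106 to 132 CPM in the other treated dogs and at 20.8, 30.2, 43.1, 26.8 and 48.1 CPM in mid-gestation dogs (log2 ratio 1.58, SE 0.32), with Citir alone inside the mid-gestation range. The transferrin receptor TFRC was at 72.1, 43.3, 39.3, 45 and 32.5 CPM against 69, 181, 78.7, 104 and 62.3 CPM (log2 ratio -1.09, SE 0.28), again with Citir among the mid-gestation dogs. The copper transporters SLC31A2, SLC31A1 and ATP7B had log2 ratios of 1.4 (SE 0.39), 0.61 (SE 0.22) and 1.21 (SE 0.46; 0.99 to 2.10 with any 1 dog left out). In ATP7B Kurtulus, at 100 CPM, was above all treated dogs except Seran (118 CPM), and without Kurtulus ATP7B was a DEG.

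The nuclear long non-coding RNA NEAT1, chosen in the same way, has 3 identifiers with log2 ratios of 1.47 (SE 0.45), 1.30 (SE 0.44) and 1.29 (SE 0.45). The first was at 87.4, 158, 129, 62.5 and 22.4 CPM in treated and 27.8, 16.9, 31.2, 34.5 and 55.8 CPM in mid-gestation dogs. Suzan and Birnur were highest, and Zeynep was inside the mid-gestation range.

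Of genes without a name, ENSCAFG00000015485 was higher in every treated dog, at 90.2, 69.9, 70.5, 91.9 and 93.3 CPM against 41.3, 38.3, 32.7, 44 and 54.6 CPM (log2 ratio 0.98, SE 0.17, edgeR adjusted p = 0.183). ENSCAFG00000031411 was at 1.33, 3.13, 2.27, 1.72 and 1.31 CPM against 0.0525, 0.206, 0.315, 0.0522 and 0.647 CPM (log2 ratio 2.87, SE 0.56, edgeR adjusted p = 0.262). Lower in every treated dog were ENSCAFG00000028993 (log2 ratio -2.73, SE 0.58, edgeR adjusted p = 0.357) and ENSCAFG00000016452 (-0.63, SE 0.17, edgeR adjusted p = 0.509). In ENSCAFG00000016452 Citir (108 CPM) and Nescafe (109 CPM) were nearly equal.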
